A study of Mus musculus with 4 samples.

Results

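The promoters of 10 mouse genes that hydrolyse, move, re-esterify and store cholesterol were read from ATAC-seq peak lists of oxLDL-loaded macrophages grown with or without esculetin. The genes were Lipa, Npc1, Npc2, Stard3, Soat1, Soat2, Plin2, Nceh1, Lipe and Osbpl8, chosen by name for their roles, with earlier results of these data known, out of 21468 protein-coding genes that could be placed with a strand on mm10. For each gene, every peak with its summit between 10 kb before the 5′ end and the 3′ end was taken, and a peak was called a promoter peak where its summit lay within 1 kb of an annotated transcription start site. Promoters of 7 of the 10 genes (Lipa, Npc1, Npc2, Soat1, Nceh1, Lipe and Osbpl8) had a peak in all 4 libraries, as did 26.9% of the coding genes. Among the other members, the Stard3 promoter was called in both esculetin libraries and neither control (0.419% of coding genes), the Soat2 promoter in both controls and neither esculetin library (3.75%), and the Plin2 promoter in every library but esculetin replicate 1.

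When a macrophage takes up lipoproteins, their cholesterol esters are cut by an acid lipase in the lysosome. The freed cholesterol is handed from the soluble protein NPC2 to the membrane protein NPC1 and leaves for the endoplasmic reticulum and the plasma membrane. Cholesterol in excess is esterified again in the endoplasmic reticulum and kept in cytosolic lipid droplets, from which neutral hydrolases release it for efflux, and a macrophage in which such droplets accumulate is called a foam cell.

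ATAC-seq inserts sequencing adapters into accessible DNA with the transposase Tn5, so that a peak marks a stretch of open chromatin. All libraries came from RAW264.7, a mouse macrophage cell line of WT genotype, and all cultures received 25 ug/mL DIL-oxLDL, a fluorescently labelled oxidised LDL, for 24 h. The control group (n = 2) received DMSO and no esculetin, and the esculetin group (n = 2) received 40 ug/mL of this plant coumarin. There was no group without oxLDL, the line is a single one, and the labels do not say whether the libraries of a group came from separate cultures, so the spread between them may be technical.

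Peaks had been called in each library alone, and the lists differed in length, with 19595 and 27833 peaks in control replicates 1 and 2 and 8677 and 12792 peaks in esculetin replicates 1 and 2. Read totals were not used here, and the depth is known only through the background of each list. This was a coverage of 6.51, 4.08, 4.97 and 4.10 in the order control 1, control 2, esculetin 1, esculetin 2. It is the most frequent local background solved from the weaker peaks of a list. To be called at that background, a summit had to reach a coverage of 18, 13, 15 and 13, or 2.76, 3.19, 3.02 and 3.17 times the background. Peaks were therefore compared by their percentile within their own list, where 0 is the weakest and 100 the strongest −log10 p. Of 10 macrophage marker genes, 5, 6, 1 and 3 had a promoter peak in the order control 1, control 2, esculetin 1, esculetin 2. The share over all coding genes was 40.7%, 42.1%, 30.1% and 37.9%. Spi1, the macrophage lineage factor, had one in every library, whereas Csf1r, Adgre1 and Itgam were among those with none in any. These calls depend on list length: with every list cut to its 8581 strongest peaks, Spi1 lost its call in control 2 alone. Of 26 marker genes of epithelial, fibroblast, adipocyte and lymphocyte cells, 0 had a promoter peak in any library, and 4, 6, 1 and 2 had a peak elsewhere in the window. The part of these differences between libraries in the results on the 10 genes was not tested.

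The sequences just upstream of 6 members are shown because their promoter peaks carry the comparisons that follow: the 2 whose percentile within the whole list did not overlap between the groups (Lipe, and Lipa, which overlapped by coverage and in equal lists), the one present only with esculetin (Stard3), the neutral hydrolase that varied most between the esculetin libraries (Nceh1), the divergent Npc2 promoter, and Osbpl8, with one of the strongest promoter peaks in each library. They are taken from RefSeq on GRCm38.p6, the assembly behind mm10, 5′ to 3′ on the strand of the gene, and each ends at the base before the annotated start. Capitals mark matches, on either strand, to CACGTG (the E-box core read by the lysosomal regulator TFEB and by USF factors), CCAAT (NF-Y), GGGCGG (the GC box of Sp factors), TTGCNNAA (a C/EBP half-palindrome) and TGTGGT (RUNX).
Lipe, chr7:25395988-25396237, minus strand: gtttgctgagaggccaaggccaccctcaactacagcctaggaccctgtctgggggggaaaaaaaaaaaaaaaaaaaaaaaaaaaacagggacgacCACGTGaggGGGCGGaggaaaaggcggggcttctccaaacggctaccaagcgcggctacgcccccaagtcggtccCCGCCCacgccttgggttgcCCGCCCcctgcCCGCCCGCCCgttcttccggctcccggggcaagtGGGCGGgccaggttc
Nceh1, chr3:27182754-27183003, plus strand: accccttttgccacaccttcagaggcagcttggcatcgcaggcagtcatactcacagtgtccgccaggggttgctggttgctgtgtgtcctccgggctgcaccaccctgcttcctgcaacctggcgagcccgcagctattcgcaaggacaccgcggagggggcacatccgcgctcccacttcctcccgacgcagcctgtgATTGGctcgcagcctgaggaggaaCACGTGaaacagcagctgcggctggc
Lipa, chr19:34527475-34527724, minus strand: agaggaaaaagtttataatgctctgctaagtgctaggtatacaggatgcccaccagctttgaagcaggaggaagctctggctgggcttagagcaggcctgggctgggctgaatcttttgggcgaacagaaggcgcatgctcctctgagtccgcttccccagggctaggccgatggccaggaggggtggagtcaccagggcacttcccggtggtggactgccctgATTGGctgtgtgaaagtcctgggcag
Npc2, chr12:84773113-84773229, minus strand: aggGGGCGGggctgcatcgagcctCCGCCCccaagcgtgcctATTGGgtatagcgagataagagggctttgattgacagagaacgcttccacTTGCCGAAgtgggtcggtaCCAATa
Stard3, chr11:98358118-98358366, plus strand: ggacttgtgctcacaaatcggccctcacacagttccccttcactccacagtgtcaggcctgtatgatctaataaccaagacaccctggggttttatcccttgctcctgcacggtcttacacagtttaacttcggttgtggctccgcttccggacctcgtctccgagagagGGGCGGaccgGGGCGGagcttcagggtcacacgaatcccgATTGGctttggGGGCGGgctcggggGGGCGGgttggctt
Osbpl8, chr10:111164552-111164741, plus strand: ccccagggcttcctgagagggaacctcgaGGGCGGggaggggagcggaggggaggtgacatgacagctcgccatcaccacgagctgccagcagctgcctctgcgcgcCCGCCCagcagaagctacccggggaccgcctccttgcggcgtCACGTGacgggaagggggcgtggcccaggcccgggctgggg

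The promoter table held 9 windows of 300 bases, from 250 before a start to 50 after it, for 8 of the 10 genes, and none for Soat2 and Npc1. CACGTG occurred in 4 of these 8 genes (Nceh1, Lipe, Osbpl8 and Plin2) and in 7.8% of 21263 coding promoters of the same length. The Nceh1 match began 26 bases before the start and the Plin2 match 4 bases before it. The Lipe match began 155 bases before the start at position 25395987, and the Osbpl8 match 101 bases before that gene's start at position 111164802. CCAAT occurred in 6 of the 8 genes and in 38.2% of coding promoters, and GGGCGG in 7 of the 8, all but Nceh1, and in 46.2%. TTGCNNAA was found in Npc2 alone, 25 bases before its start, against 10.2% of coding promoters, and TGTGGT in Lipe alone, at its most downstream start, against 15.0%. The GC content of the member windows ran from 59.3% to 72.7%, with a median of 56.3% over coding promoters. These counts describe letters in the windows and do not mark bound sites.

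Promoter peaks were present in 9, 9, 8 and 9 of the 10 members in the order control 1, control 2, esculetin 1, esculetin 2. The share of all coding genes with a promoter peak was 40.7%, 42.1%, 30.1% and 37.9%. The member count was 9 in the controls and 8.50 with esculetin on average, a difference of 1 gene in 1 library. Presence in all 4 libraries was seen for 7 of 10 members, and for 26.9% of coding genes. Presence in both esculetin libraries and neither control was seen for 1 member, Stard3, and for 0.419% of coding genes. Presence in both controls and neither esculetin library was seen for 1 member, Soat2, and for 3.75% of coding genes. When every list was shortened to its 8581 strongest peaks, the number of members with a promoter peak became 7, 6, 8 and 8, so that the order of the groups turned, as it also did for all coding genes (27.7%, 19.4%, 30.1% and 32.6%). In those equal lists Stard3 was still the esculetin-only member, against 4.47% of coding genes, while Soat2 and Plin2 had a promoter peak in none of the libraries.

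**Figure D1:**
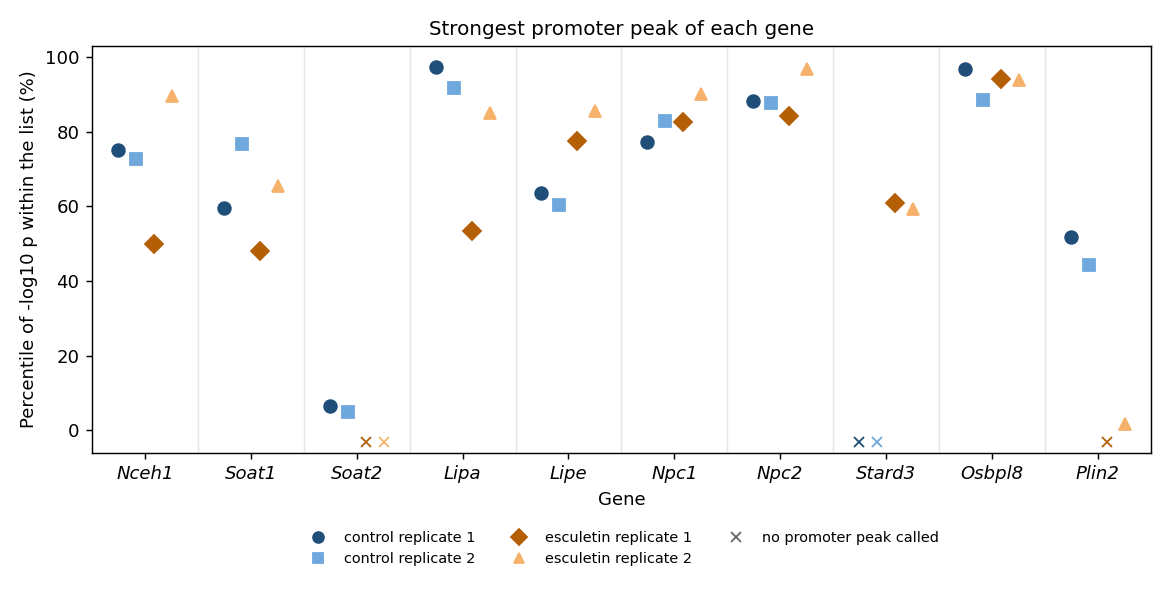
Percentile of the strongest promoter peak of each member within the peak list of its library (vertical axis, %, 100 strongest) by gene (horizontal axis), with 1 symbol per library, blue for control and orange for esculetin, and a cross where no promoter peak was called. Lipe is the only member whose esculetin points (77.4 and 85.5) both lie above its control points, and Lipa the only one whose esculetin points (53.4 and 84.9) both lie below; Stard3 has points only for esculetin, Soat2 only for control.

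Lysosomal hydrolysis and export were represented by Lipa, Npc1, Npc2 and Stard3. Lipa encodes lysosomal acid lipase, which cuts incoming cholesterol esters, and lies on chromosome 19 at 34492316 to 34527474 on the minus strand. Its promoter peak had its summit 8, 19, 23 and 46 bp upstream of the start in control 1, control 2, esculetin 1 and esculetin 2. The percentile was 97.4 and 91.7 in the controls and 53.4 and 84.9 with esculetin, both esculetin values below both control values. The mean was 94.6 ± 4.02 (SD, n = 2) in the controls and 69.2 ± 22.27 (SD, n = 2) with esculetin, and the exact two-sided permutation test of the difference gave p = 0.33, the smallest value that 2 against 2 libraries can give. On the scale of summit coverage over the genome-wide background, Lipa stood at 9.06 and 12.01 in the controls and at 6.04 and 10.00 with esculetin, and the groups overlapped. Without esculetin replicate 1 the difference in mean percentile shrank from −25.37 to −9.62 points, and without esculetin replicate 2 it was −41.12 points. Esculetin replicate 1 also held a second, weak Lipa promoter peak 442 bp into the gene, at percentile 12.8.

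Npc1, whose product exports cholesterol through the lysosomal membrane, lies on chromosome 18 at 12189694 to 12236506 on the minus strand and overlaps Rmc1 at its 3′ part. Its promoter percentile was 77.2 and 82.8 in the controls and 82.5 and 90.1 with esculetin. The groups overlapped, averaging 80.0 ± 4.01 in the controls and 86.3 ± 5.41 with esculetin (SD, n = 2 each), with p = 0.67 in the exact permutation test. The summits moved from 66 bp inside the gene in control 1 to 36 bp upstream in control 2, 19 bp inside in esculetin 1 and 96 bp inside in esculetin 2.

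Npc2, the soluble carrier that passes cholesterol to NPC1, lies on chromosome 12 at 84754559 to 84773112 on the minus strand. It shares its promoter with Isca2, an iron-sulfur cluster assembly gene that starts on the other strand with 117 bases between, the bases printed above, so a peak there cannot be given to one of these genes. The percentile was 88.2 and 87.8 in the controls and 84.3 and 96.9 with esculetin, and the esculetin values enclosed the control values. They averaged 88.0 ± 0.30 in the controls and 90.6 ± 8.93 with esculetin (SD, n = 2 each), with p = 1 by exact permutation. In esculetin replicate 2 this was the strongest of all member peaks, at rank 396 of its list and 16.10 times the background.

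Stard3 encodes a sterol transfer protein of late endosomes that works at contacts with the endoplasmic reticulum. It lies on chromosome 11 at 98358367 to 98381112 on the plus strand and has a divergent lncRNA neighbour, 1700003D09Rik, with 84 bp between the starts. Neither control had a peak anywhere in its window. Both esculetin libraries had a single peak with its summit at the same base, 30 bp upstream of the start, which lies in the printed sequence 2 bp from the nearest GGGCGG match and 5 bp from the CCAAT match. These peaks were 534 and 595 bp wide and stood at percentiles 61.0 and 59.2, in the middle of their lists. Both covered the starts of Stard3 and 1700003D09Rik, so they cannot be given to one of these genes. The summit coverage was 36 over a local background of 6.50 in esculetin 1 and 33 over 5.78 in esculetin 2, or 7.24 and 8.05 times the genome-wide background. The coverage of the controls at this base is not known from a peak list. At the genome-wide background a control call needed 2.76 and 3.19 times that background, and a higher local background raises this limit.

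Esterification was represented by Soat1 and Soat2 and droplet storage by Plin2. Soat1, the acyltransferase that makes cholesterol esters in macrophages, lies on chromosome 1 at 156428108 to 156474328 on the minus strand. Its promoter percentile was 59.7 and 76.6 in the controls and 48.0 and 65.6 with esculetin, so that the values of the groups interleaved. They averaged 68.1 ± 12 in the controls and 56.8 ± 12.45 with esculetin (SD, n = 2 each), with p = 0.67 by exact permutation.

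Soat2, the related acyltransferase known from liver and intestine, lies on chromosome 15 at 102150415 to 102163469 on the plus strand. It had a peak in the controls at percentiles 6.5 and 4.9, among the weakest of either list, with summits 554 and 403 bp into the gene and a coverage of 28 and 20. Neither esculetin library had a peak in the window. These control peaks stood at 4.30 and 4.90 times the background, against the 3.02 and 3.17 times that an esculetin call needed at background. The local background there was 9.96 and 5.74 in the controls, above the genome-wide 6.51 and 4.08. The fold over it was therefore only 2.65 and 3.12, and the control limit at this site was above the genome-wide one. The esculetin limit at this site is not known, since a list gives no local background where it has no peak. With a promoter window of 500 bp the control 1 peak would not count.

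Plin2, which coats lipid droplets and is abundant in foam cells, lies on chromosome 4 at 86626910 to 86670217 on the minus strand. Control 1 had promoter peaks at percentiles 51.7 and 33.3, control 2 had one at 44.2, esculetin 1 had none, and esculetin 2 had one at 1.6. The positions differed as well. The strongest peak of both controls had its summit at the same base, 528 bp inside the nearest start and thus outside a window of 500 bp, which would leave control 2 without a promoter peak, while the peak of esculetin 2 and the weaker peak of control 1 lay at the start itself, 9 and 27 bp from it. The peak of esculetin 2 was 5 bp from the CACGTG match and rose to a coverage of 19, or 4.63 times the background, against 5.22 and 6.86 times for the strongest control peaks.

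Neutral hydrolysis of stored esters was represented by Nceh1 and Lipe. Nceh1 encodes neutral cholesterol ester hydrolase of the endoplasmic reticulum and lies on chromosome 3 at 27183004 to 27245266 on the plus strand. Its promoter percentile was 75.1 and 72.7 in the controls, 49.9 in esculetin 1 and 89.7 in esculetin 2. One esculetin value was below and the other above both control values, and the averages were 73.9 ± 1.69 in the controls and 69.8 ± 28.19 with esculetin (SD, n = 2 per group), with p = 1 by exact permutation. The coverage also overlapped between the groups, at 5.99 and 8.58 times the background in the controls and 5.84 and 10.98 with esculetin. The peak was 224 bp wide in esculetin 1 and 582 bp wide in esculetin 2, and it contained the CACGTG and the CCAAT match in every library.

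Lipe encodes hormone-sensitive lipase, which hydrolyses cholesterol esters as well as acylglycerols. It lies on chromosome 7 at 25379527 to 25398486 on the minus strand with 3 annotated starts, and its promoter peak lay at the middle one, with summits 273, 284, 273 and 269 bp downstream of it. The window also overlaps 4732471J01Rik and Cxcl17, and the peak was given to Lipe by distance to its annotated starts alone. The percentile was 63.6 and 60.4 in the controls and 77.4 and 85.5 with esculetin, both esculetin values above both control values. They averaged 62.0 ± 2.23 in the controls and 81.5 ± 5.79 with esculetin (SD, n = 2 per group), or 19.46 points more with esculetin, and p = 0.33 by exact permutation is again the lowest value this design allows. The coverage was 5.68 and 8.09 times the background in the controls and 9.05 and 11.95 times with esculetin, again without overlap. Lipe was the only member whose groups were apart on both scales. Its E-box match was 419 to 434 bp from the summits and its nearest GGGCGG match 279 to 294 bp, so the summits lay outside the printed sequence. The nearest GGGCGG match was inside the peak in every library, and the E-box match in all but control 2.

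Osbpl8 encodes ORP8, a lipid transfer protein of the endoplasmic reticulum that acts at membrane contacts. It lies on chromosome 10 at 111164742 to 111297249 on the plus strand and had one of the strongest and steadiest member peaks. The percentile was 96.8 and 88.5 in the controls and 94.1 and 94.0 with esculetin, the esculetin values lying between the control values. They averaged 92.6 ± 5.86 in the controls and 94.1 ± 0.10 with esculetin (SD, n = 2 per group), with p = 1 by exact permutation, and the coverage was 10.60, 13.73, 12.47 and 15.37 times the background.

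Over the 7 members with a promoter peak in all libraries, 1 was higher in both esculetin libraries and 1 was lower, while 5 overlapped. Among the 5776 coding genes with such peaks, 14.6% were higher and 30.1% were lower. By coverage over background, 1 member (Lipe) was higher and none was lower, against 18.2% and 10.8% of coding genes. By the percentile of the fold, 2 members (Lipe and Npc1) were higher and 1 (Lipa) was lower, a scale not read over all coding genes. Within lists cut to equal length, 6 members could be compared, of which 4 (Nceh1, Soat1, Npc1 and Npc2) were higher and none was lower, against 37.5% and 6.77% of 3249 coding genes, and Lipa overlapped. This percentile is the rank in the whole list on another scale, so list length and a change at a gene cannot be told apart in it. The median difference in percentile was 1.44 points over the members and −4.46 points over the coding genes. The median member percentile was 77.2, 82.8, 77.4 and 89.7 in the order control 1, control 2, esculetin 1, esculetin 2. In the control means the order was Lipa, Osbpl8, Npc2, Npc1, Nceh1, Soat1 and Lipe. Neighbours in this order differed by less than the larger of their SDs, except Npc2 and Npc1, and Npc1 and Nceh1. With esculetin the order was Osbpl8, Npc2, Npc1, Lipe, Nceh1, Lipa and Soat1, where each neighbour pair differed by less than the larger of its SDs.

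**Figure D2:**
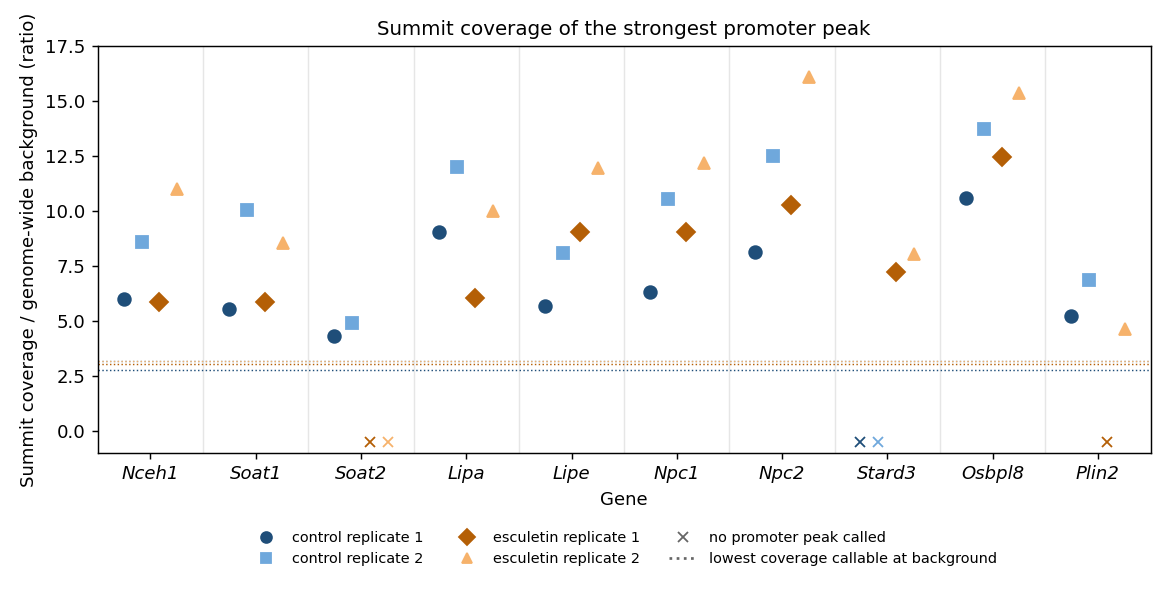
Summit coverage of the strongest promoter peak of each member divided by the genome-wide background of its library (vertical axis, times background), with 1 symbol per library, crosses for libraries without a promoter peak, and dotted lines for the level a call needed at background in each library. Every peak shown stands above that level, Soat2 and Plin2 by the smallest margin, and Lipe is the only member whose esculetin points (9.05 and 11.95) both exceed its control points (5.68 and 8.09).

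The windows of the members also held peaks away from the promoters. The number of peaks in the 10 windows was 22 and 18 in the controls and 9 and 13 with esculetin, of which 11, 9, 9 and 9 were promoter peaks. The remaining 11 and 9 peaks of the controls compare with 0 and 4 with esculetin. Those outside promoters made up 50.0%, 50.0%, 0.0% and 30.8% of the window peaks. The 0 of 9 in esculetin 1 allows a share of up to 33.3% if a count of 0 can stand for up to 3 peaks and peaks are independent. Over the windows of all coding genes the share was 46.1%, 60.8%, 27.4% and 33.6%. Fewer window peaks in both esculetin libraries than in either control were counted for 4 members (Soat1, Soat2, Npc2 and Plin2) and for 24.9% of coding genes with any window peak, and more for 1 member (Stard3) and 0.699% of genes. Per 10000 peaks of the list the members had 11.30, 6.49, 10.49 and 10.25 peaks, where the controls enclosed both esculetin values.

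Merging the peaks away from any promoter gave 16 regions, to be read against 15706 such regions over all coding genes. Control 1 alone held 6 (37.5%, against 13.8% over the genes), control 2 alone 4 (25.0%, against 51.4%) and esculetin 2 alone 2 (12.5%, against 6.9%). A further 2 of 16 were called in both controls and in neither esculetin library, against 15.0% over the genes, and 2 were called in both controls and esculetin 2, against 3.2%. None was called in all 4 libraries, against 3.4% over the genes. The strongest were intragenic. In Nceh1 a region 27.0 kb into the gene, at 27209558 to 27210117, had percentiles of 83.8 and 69.6 in the controls, no call in esculetin 1 and 24.5 in esculetin 2. In control 1 this region was stronger than the Nceh1 promoter itself. In Npc1 a region 12.4 kb into the gene, at 12223959 to 12224277, had percentiles of 84.3 and 60.4 in the controls, no call in esculetin 1 and 16.5 in esculetin 2. In Soat1 a region 36.8 kb into the gene, at 156437323 to 156437727, had percentiles of 59.3 and 78.2 in the controls and no call with esculetin, and its control coverage of 5.07 and 8.82 times the background lay above the level an esculetin call needed at background. The remaining regions outside promoters were at percentile 42.5 or lower. Control peaks 8.1 kb upstream of Osbpl8, at percentiles 61.2 and 12, lay near the start of the pseudogene Gm8873 and are not among the 16.

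**Figure D3:**
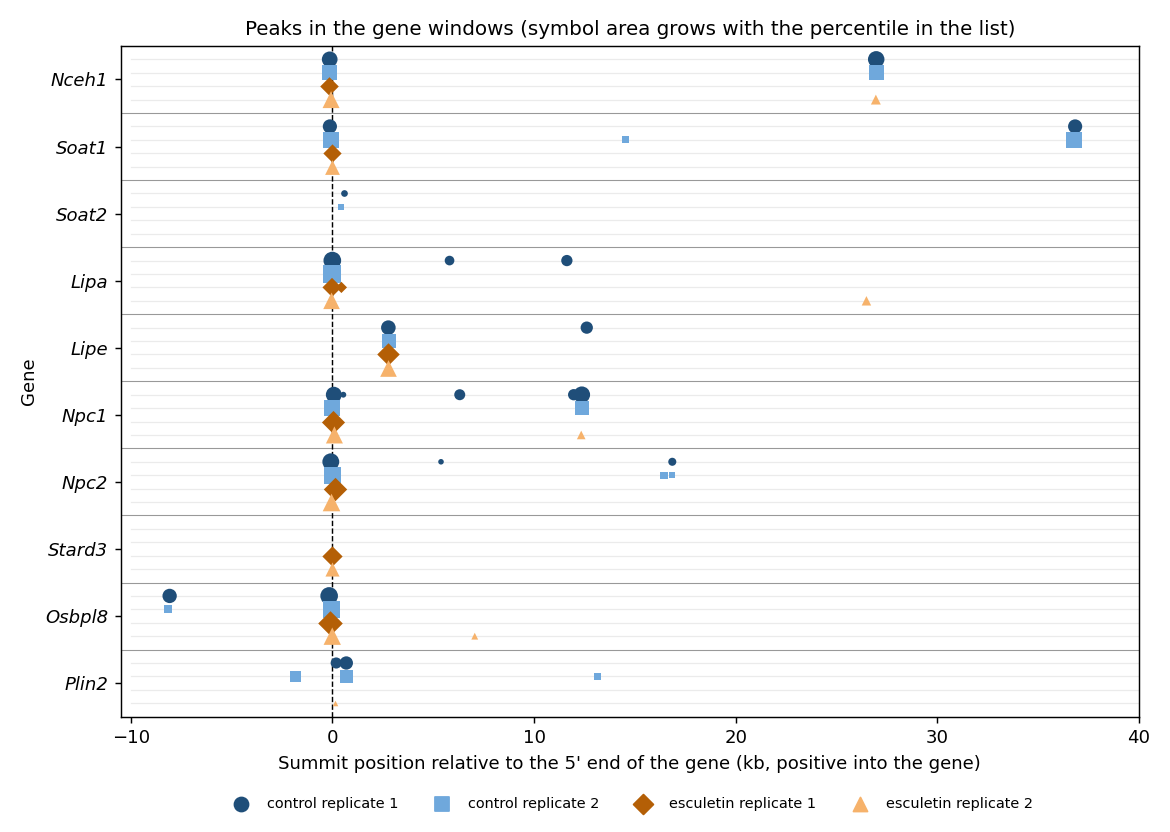
Peaks in the window of each member by distance of the summit from the 5′ end of the gene (horizontal axis, kb, positive into the gene), with 1 line per library within each gene and a symbol area that grows with the percentile. Of the members, 7 have a peak at an annotated start in every library (2.8 kb into the gene for Lipe). The peaks away from starts are 11 and 9 peaks of the controls and 4 of esculetin 2.

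The wider pathway was read from 43 further genes that bind or move sterols, coat droplets, hydrolyse esters or regulate lysosomal genes. A promoter peak was present for 21, 23, 17 and 22 of them, against 40.7%, 42.1%, 30.1% and 37.9% of coding genes, and 17 of 43 (39.5%) had one in all libraries, against 26.9%. None was called in both esculetin libraries and neither control, against 0.419% of coding genes. Gramd1a, a sterol transfer protein at plasma membrane contacts, was the only one called in both controls (percentiles 35.8 and 28.5) and in neither esculetin library, against 3.75% of coding genes. In equal lists the number with a promoter peak became 16, 9, 17 and 19, turning the order of the groups as for all coding genes (27.7%, 19.4%, 30.1% and 32.6%). There Gramd1a had no promoter peak in any library, and Dgat2 and Tfe3 were called in both esculetin libraries and neither control, against 4.47% of coding genes. Of the 17 genes, 3 were higher in both esculetin libraries and 8 were lower in percentile, with a median difference of −7.14 points, where 14.6% of coding genes were higher, 30.1% were lower and the median was −4.46 points. By coverage over background, 3 of the 17 were higher and 2 were lower, near the 18.2% and 10.8% of coding genes. The 5 genes whose lowest percentile over the libraries was highest included 3 of the oxysterol-binding protein family, lipid carriers related to Osbpl8. Osbp stood at 95.7, 90, 95.6 and 99.0, Osbpl2 at 94.8, 89.9, 81.4 and 98.8, and Osbpl9 at 88.6, 82.0, 70.3 and 80.7, the last gene with both esculetin values below both controls. Stard4, a cytosolic sterol carrier, stood at 93.1, 86.2, 85.9 and 79.9, with the same order of the groups. Dgat1, a triglyceride-forming acyltransferase of the same family as Soat1, stood at 77.1, 81.9, 71.0 and 74.5, again below both controls.

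**Figure D4:**
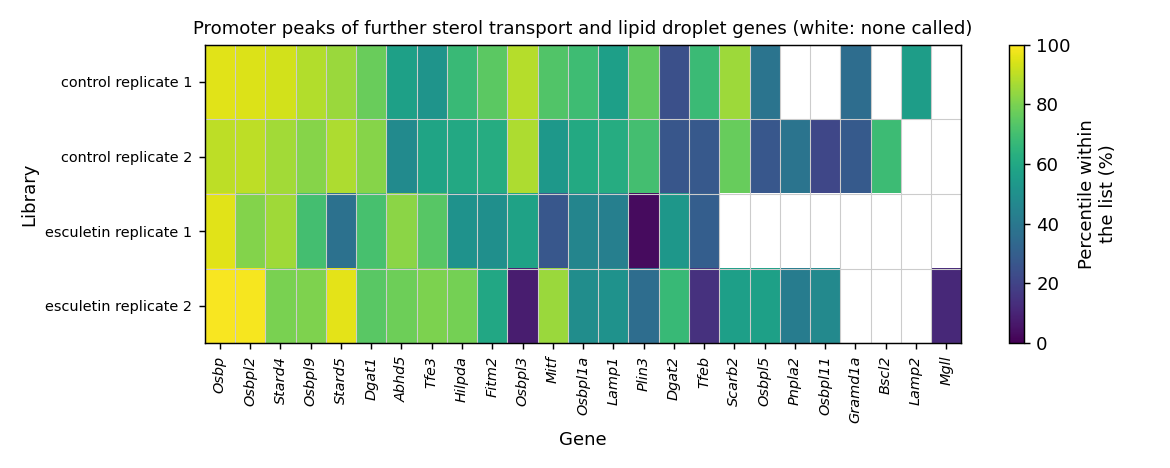
Percentile of the strongest promoter peak of the further pathway genes (horizontal axis) in the libraries (vertical axis), as colour from 0 to 100%, for the 25 genes with a promoter peak in at least 1 library. White cells are libraries without a promoter peak; Osbp (95.7, 90, 95.6 and 99.0) and Osbpl2 are among the strongest, and Gramd1a is the one gene with a peak in both controls and no esculetin library.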

How the data were processed

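ATAC-seq was performed on RAW264.7 cells in 2 control and 2 esculetin libraries. Per the labels, the authors trimmed reads with Trim Galore, aligned them to mm10 with Bowtie2 and called peaks with MACS2 in each library alone; the caller's options are not given in the sources used here. The deposited lists hold for each peak a score, the fold over local background (a ratio), the −log10 p and −log10 q of the summit, and the summit position. Peak names inside the lists number the esculetin libraries E2 and E3 where the labels say 1 and 2.

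The members and lists were chosen with earlier results of these data known. Gene spans came from RefSeq (GRCm38.p6); the strand came from its promoter table for 17492 coding genes and from GENCODE vM39 for 3976, Soat2 and Npc1 among them. Percentiles of −log10 p were taken within each list over chromosomes 1 to 19, X and Y. Where a gene had several promoter peaks, the strongest was used. Groups were compared by presence and by an exact two-sided permutation test over the 6 divisions of 4 libraries into 2 and 2, which cannot go below p = 0.33. Summit coverage was solved from the deposited fold, taken as (coverage + 1)/(background + 1), and its Poisson p. The genome-wide background of a library was the most frequent local background solved for peaks with −log10 p below 60. The coverage scale was added after seeing the data. The scripts were tested on simulated data. The text names all members, the further pathway genes called in both libraries of 1 group and neither of the other, and the 5 further genes with the highest percentiles in all libraries; pathway genes named under the closing observations, and Dgat2 and Tfe3, were chosen after their values were seen. Motif matches were sought in RefSeq promoters. The values of 1 marker gene are not reported here. Tables were handled with pandas 2.3.3 and NumPy 2.4.6 in Python 3.11.15, tests came from SciPy 1.17.1 and plots from matplotlib 3.10.9.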

Additional observations from a re-analysis of the deposited data

How the results depend on the processing

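With 2 libraries a group, the exact permutation test used here could not pass 0.05, so only values and directions are compared. Equal lists of 8581 peaks moved most results: the difference between group means in members with a promoter peak went from −0.50 to 1.5, in further pathway genes from −2.50 to 5.50, in window peaks from −9.00 to −1, and in median member percentile from 1.44 to 27.59, with Nceh1 going from −4.07 to 39.79 and Soat1 from −11.29 to 32.20. A 500 bp promoter window gave 0.50 for members with a promoter peak, since Soat2 lost its call in control 1 and Plin2 in control 2, and window peaks per 10000 peaks of the list gave 1.48. Nceh1 also turned among promoter peaks (0.84) and by coverage (1.12). Raw ranks gave 3414 for Nceh1 and 2763.50 for Soat1. The percentile in equal lists is this rank on a scale of 8581 peaks, so the 2 alternatives are not separate checks. In both, list length and a change at the gene cannot be told apart, and neither shows a direction. Leaving out 1 library gave ranges of −1 to 0.00 for members with a promoter peak, −5.00 to 0.00 for further pathway genes, −11.00 to −7.00 for window peaks and −3.73 to 8.90 for the median percentile; the upper ends for members, pathway genes and median percentile came without esculetin replicate 1. Among single genes, Soat1 ranged from −20.10 (without esculetin replicate 2) to −2.49 (without esculetin replicate 1), Npc1 from 2.48 (without esculetin replicate 2) to 10.13 (without esculetin replicate 1), Lipa from −41.12 to −9.62, Nceh1 from −24.00 to 15.87 (without esculetin replicate 1), Npc2 from −3.73 (without esculetin replicate 2) to 8.90 and Osbpl8 from −2.70 (without control replicate 2) to 5.59. Lipe stayed positive and Lipa negative under every alternative that gave a value, and Lipe gave none in equal lists. The Lipa groups nevertheless overlapped by coverage and by rank, which is the same measure as the percentile in equal lists. The replicate block gave the same median, 1.44; the labels do not say that the replicate numbers pair the libraries, and an exact test of 2 pairs cannot go below p = 0.5.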

Other observations

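Outside the genes described above, the further pathway genes higher in both esculetin libraries than in both controls were Abhd5, the co-activator of the droplet lipase ATGL (percentiles 56.7 and 47.9 in the controls, 82.6 and 78.0 with esculetin), Dgat2, a triglyceride-forming enzyme (24.5 and 26.9, then 53.1 and 67.4), and Tfe3, a lysosomal gene regulator (51.7 and 58.5, then 74.2 and 80.3). Lower in both esculetin libraries, beside Osbpl9, Stard4 and Dgat1 above, were the droplet coat gene Plin3 (75.7 and 70.2 in the controls, 2.8 and 35.6 with esculetin), Osbpl3 (88.8 and 87.8, then 57.6 and 7.9), Osbpl1a (69.0 and 60.7, then 45.6 and 49.2), the lysosomal membrane gene Lamp1 (56.6 and 61.9, then 43.1 and 51.1) and Fitm2, which acts in droplet formation (74.7 and 61.9, then 49.9 and 60.1). These genes were chosen after their values were seen. Of coding genes with promoter peaks in all libraries, 14.6% were higher and 30.1% were lower.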
